A study of Homo sapiens with 3 samples.

Results

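The metallothionein genes of chromosome 16 form a tandem array of short genes. The 10 protein-coding members described here are MT1A, MT1B, MT1E, MT1F, MT1G, MT1H, MT1M, MT1X, MT2A and MT3. They were found by symbol among 59679 genes of a GRCh38.p14 gene table, of which 20037 were protein-coding, and all 10 lie on chromosome 16 within 94.7 kb. The chromatin data are 1 ATAC-seq library of hCMEC/D3, an immortalized human line derived from the endothelium of small brain vessels. The labels name no treatment. The cells were at passage 4 to 6 and had reached confluence in endothelial medium on collagen. ATAC-seq marks open chromatin by the cuts of the Tn5 transposase, and the deposited file lists the broad peaks called from those cuts. A peak was assigned to a member when it overlapped the gene or lay within 1 kb of it. With 1 library and 1 condition analysed here, no test was made, and the spread behind any single value is unknown. RNA levels of the members were not analysed here.

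Metallothioneins are small cysteine-rich proteins that bind zinc and copper and also take up toxic metals such as cadmium. Transcription of the MT1 and MT2A genes is raised by metals through the zinc-sensing factor MTF1, which binds short metal response elements near their start sites, and also by glucocorticoids and oxidative stress. MT2A and several MT1 genes are used in many tissues, including vessel walls, whereas MT3 is best known from neurons and astrocytes and MT4 from stratified epithelium.

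The sequences before the start sites are shown first because the peaks described below either cover or leave out these stretches. The RefSeq promoter table (build GRCh38.p14) held 4 of the 10 members, MT2A, MT1B, MT1H and MT1X, as well as the neighbouring gene MT4. Each line gives the 250 bases before the gene start, 5′ to 3′, on the plus strand. Capitals mark the core of the metal response element, searched as TGCACNC and TGCGCNC on both strands. The stretches are chr16:56608334-56608583 for MT2A and chr16:56682220-56682469 for MT1X, both covered by a called peak over their whole length, and chr16:56651636-56651885 for MT1B and chr16:56669564-56669813 for MT1H, neither overlapped by a peak.
MT2A: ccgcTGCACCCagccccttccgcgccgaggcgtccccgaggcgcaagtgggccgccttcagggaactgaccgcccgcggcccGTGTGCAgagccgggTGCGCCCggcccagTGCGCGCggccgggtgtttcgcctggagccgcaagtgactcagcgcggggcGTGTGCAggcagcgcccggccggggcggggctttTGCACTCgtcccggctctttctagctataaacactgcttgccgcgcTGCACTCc
MT1X: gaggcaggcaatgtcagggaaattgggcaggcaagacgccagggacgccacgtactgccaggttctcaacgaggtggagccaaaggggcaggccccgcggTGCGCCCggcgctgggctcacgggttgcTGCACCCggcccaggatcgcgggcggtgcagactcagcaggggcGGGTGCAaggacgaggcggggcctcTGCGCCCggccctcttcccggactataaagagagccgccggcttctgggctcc
MT1B: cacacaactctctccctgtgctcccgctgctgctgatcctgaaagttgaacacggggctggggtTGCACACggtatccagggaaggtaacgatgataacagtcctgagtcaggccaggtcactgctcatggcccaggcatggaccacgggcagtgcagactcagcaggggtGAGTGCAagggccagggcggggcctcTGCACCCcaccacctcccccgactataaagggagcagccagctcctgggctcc
MT1H: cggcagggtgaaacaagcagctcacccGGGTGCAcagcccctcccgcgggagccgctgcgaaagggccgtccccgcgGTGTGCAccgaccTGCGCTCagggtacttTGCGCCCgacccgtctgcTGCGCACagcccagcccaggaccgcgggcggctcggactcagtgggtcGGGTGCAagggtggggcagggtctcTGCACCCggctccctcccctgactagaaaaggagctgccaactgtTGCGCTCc

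All 4 stretches held several metal response element cores. MT2A had 7 and MT1X had 4, and both were covered by a peak. MT1H had 8 and MT1B had 3, and neither had a peak. A core was present in 24.8% of the 35116 promoter stretches of the same length in the table, and in 28.4% of those of protein-coding genes. Over all 35116, 3 or more, as in MT1B, were found in 1.58%. For 4 or more, as in MT1X, the share was 0.37%, for 7 or more, as in MT2A, 0.0313%, and for 8 or more, as in MT1H, 0.0171%. Among these 4 members the number of cores therefore did not order them by whether a peak was called. The TATAAA box was found in MT2A, MT1X and MT1B, and these letters were not found in the MT1H stretch. It was found in 10.7% of all stretches and in 9.0% of those of protein-coding genes. A match is a description of the letters and not a measured binding site.

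**Figure D1:**
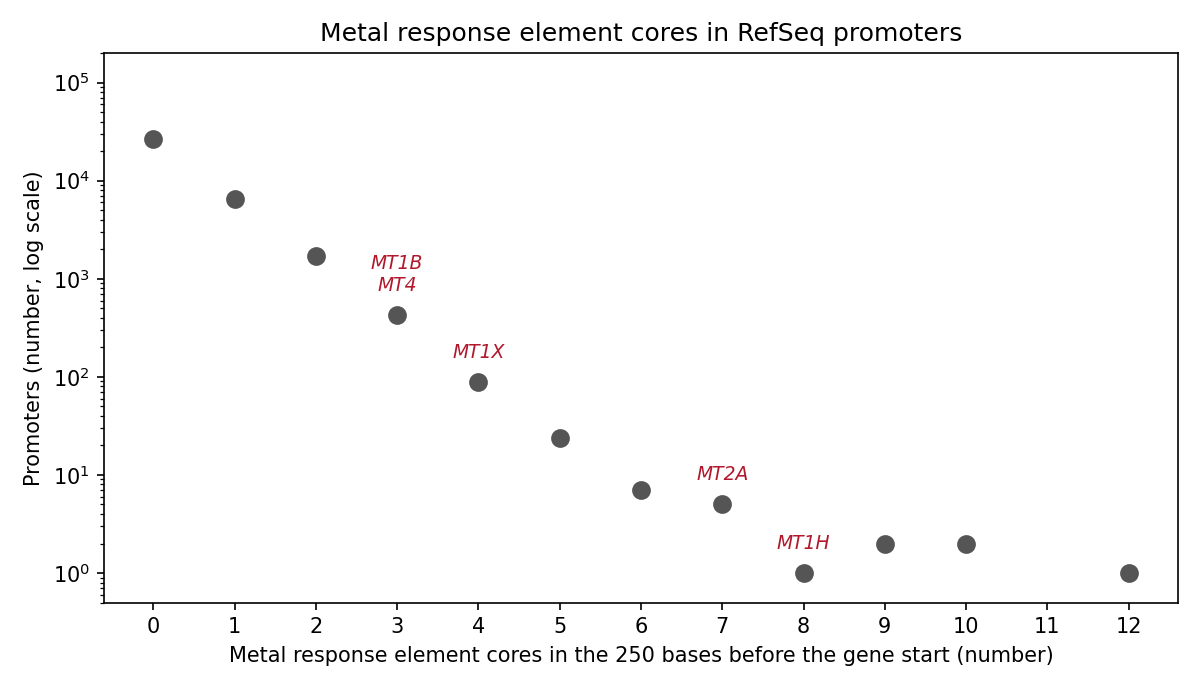
Number of RefSeq promoter stretches (vertical axis, log scale) by the number of metal response element cores in the 250 bases before the gene start (horizontal axis), with the metallothionein genes of the table named above their class. MT2A with 7 cores and MT1H with 8 stand in classes that hold 5 and 1 of the 35116 stretches, and a peak covered MT2A and not MT1H.

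Accessible chromatin was called at 8 of the 10 members (80.0%, 95% Wilson interval 49.0% to 94.3%, which covers counting over genes only). The members without a peak were MT1B and MT1H. Under the same rule 83.7% of all protein-coding genes had a peak, so the members' share was near the background. The members are short, 914 to 1727 bp. Of the 1087 protein-coding genes of at most 1727 bp, 32.8% had a peak. Members share 1 locus and are not independent of each other.

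Each of the 8 members had a peak across an end of the gene itself. A gene end was covered in 62.3% of all protein-coding genes and in 25.9% of those of at most 1727 bp. In 7 members, MT3, MT2A, MT1E, MT1M, MT1A, MT1F and MT1X, the peak crossed the end with the lower coordinate, and its centre lay 34 to 224 bp outside the gene. For MT2A and MT1X this end is the start site, as the promoter table gives the plus strand. In MT1G the peak crossed the end with the higher coordinate, and its centre lay 174 bp beyond it. The promoter windows of the 4 members in the table, 250 bases before to 50 after the start, were covered in 2 cases, against 70.2% of the protein-coding genes in that table.

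MT2A, one of the most broadly expressed human metallothionein genes, had 3 peaks. The peak over its start site, chr16:56608069-56608704, was 636 bp long with a pileup of 111.37 tags. For a broad peak the pileup is the depth of extended tags averaged over the whole peak, not the height of a summit. It ranked 98th by pileup among the 106415 peaks of the library. A second peak, chr16:56606182-56607763, ended 820 bp before the gene, measured 1582 bp and had a pileup of 93.43 tags. The last, chr16:56609735-56610632, began 237 bp beyond the gene with 79.29 tags. All 3 were above every other peak of the locus in pileup. The best peak of MT2A was higher than that of 99.5% of protein-coding genes with a peak. The long noncoding RNA gene LOC124903695 lies beside MT2A on the opposite strand and runs away from it. The promoter windows of both genes overlap, and that of LOC124903695 also lay wholly within the same peak, so accessibility there cannot be given to one of these genes alone. The second peak overlapped the lower-coordinate end of LOC124903695 and no base of MT2A, so it belongs to MT2A only by the 1 kb rule.

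MT1E, an MT1 gene of the same metal-binding function, had a peak at each end. The peak over the lower-coordinate end, chr16:56625222-56626261, was 1040 bp long with 56.21 tags. The peak over the upper-coordinate end, chr16:56626823-56627689, was 867 bp long with 58.22 tags. The pair differed by little in pileup, and MT1E was the only member with both ends covered.

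MT1M and MT1A, the next members along the chromosome, had 1 peak each. At MT1M it was chr16:56632063-56632981 with 919 bp and 47.51 tags. At MT1A it was chr16:56638104-56638779 with 676 bp and 42.02 tags. Both were close to the median best pileup of all protein-coding genes with a peak, 47.77 tags: 49.5% of these genes were lower than MT1M and 40.1% lower than MT1A.

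MT1F and MT1G were lower. MT1F had a peak of 1050 bp, chr16:56657400-56658449, with 33.17 tags. MT1G had a peak of 581 bp, chr16:56667949-56668529, with 16.41 tags, and 8.23% of protein-coding genes with a peak were lower. MT1X, the last member, stood apart from its neighbours with a peak of 910 bp, chr16:56681922-56682831, and 57.5 tags, near the level of MT1E.

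MT1B and MT1H had no peak within 1 kb. The nearest peak to MT1H was 1284 bp away and is the one over MT1G, its neighbour. The nearest to MT1B was 4195 bp away and is the one over MT1F. MT1B lay in the longest stretch of the cluster without a peak, 13590 bp from 56643810 to 56657399, together with the pseudogene MT1CP. The lowest pileup called anywhere in the library was 8.0 tags, so accessibility below the caller's threshold was not detectable at this depth. Near the 1 kb limit, the farthest assigned peak was the MT2A peak at 820 bp, and the nearest one left out among members was that at 1284 bp from MT1H.

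MT3, the neuronal member, had the lowest pileup of the 8 members. Its peak, chr16:56589139-56589692, was 554 bp long with 14.64 tags, and 6.09% of protein-coding genes with a peak were lower. It was also the only member peak whose local background equalled the library-wide level of 2.37 tags. That level is the lowest background the caller uses, and it was set with the mouse genome size.

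**Figure D2:**
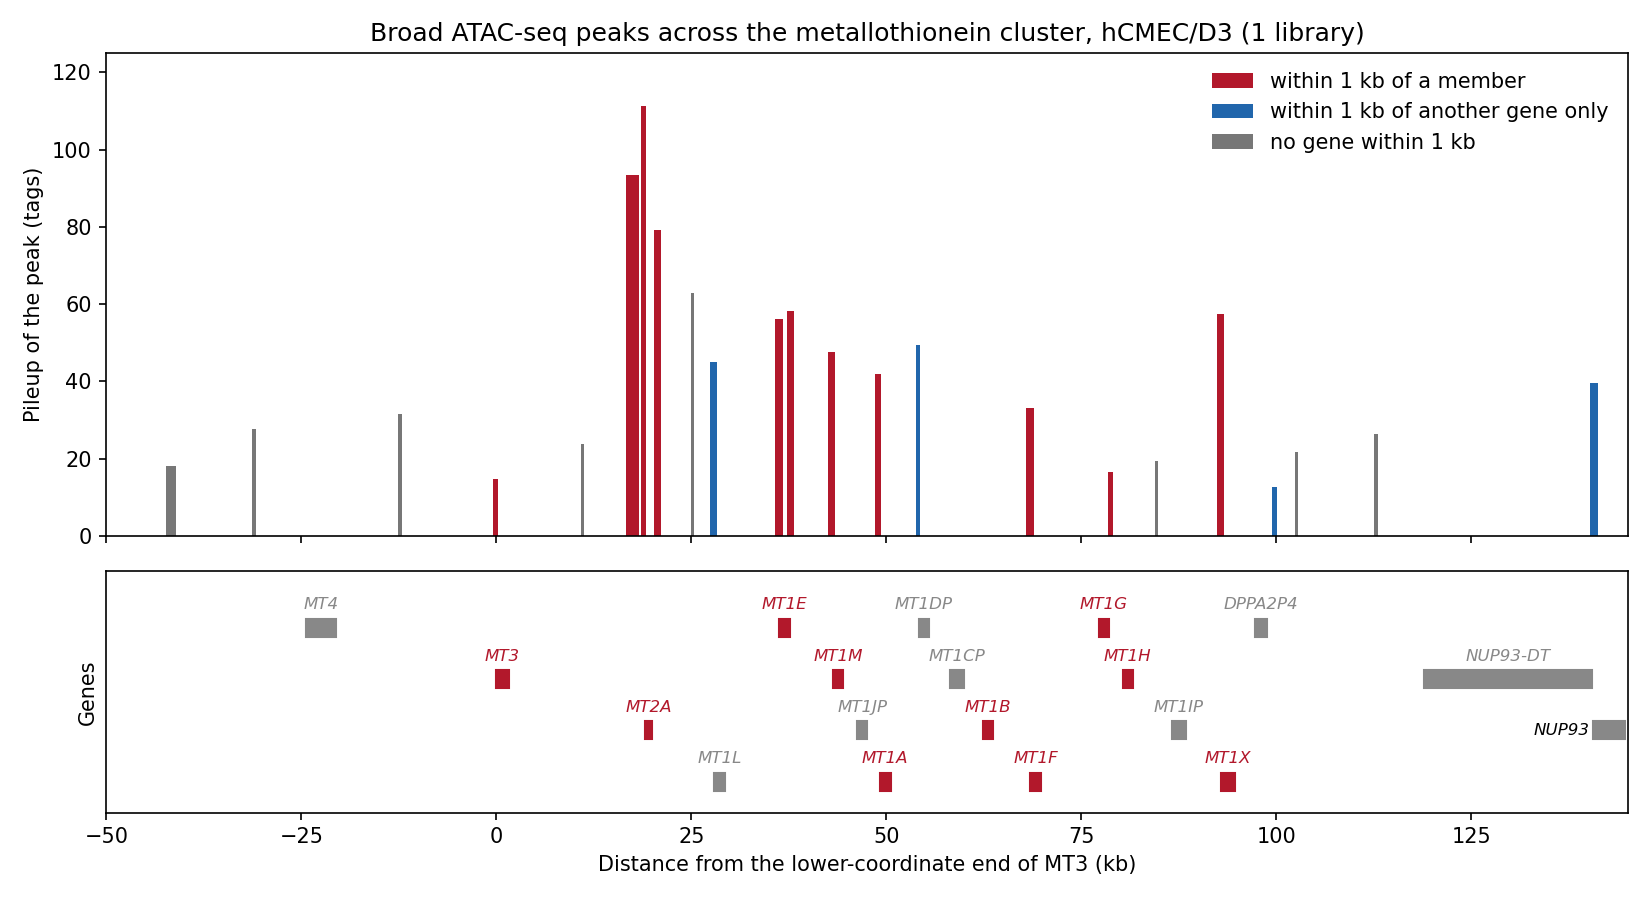
Pileup in tags of the 23 broad peaks (upper panel, bars drawn to their width) and positions of the genes (lower panel, members in red, unnamed loci left out) against distance in kb from the lower-coordinate end of MT3. The 3 peaks at MT2A reach 79.29 to 111.37 tags, and MT1B and MT1H have no bar within 1 kb.

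Read along the chromosome, the best pileup of the members fell in order after MT2A: 111.37 tags at MT2A, 58.22 at MT1E, 47.51 at MT1M, 42.02 at MT1A, 33.17 at MT1F and 16.41 at MT1G. MT1B, between MT1A and MT1F, had no peak. The order did not extend to the ends of the array, where MT3 had 14.64 tags before MT2A and MT1X had 57.5 after MT1H. The pseudogenes did not follow it either, with 45.13 tags at MT1L, between MT2A and MT1E, and 49.47 at MT1DP, between MT1A and MT1B. From MT2A to MT1G the local background of the best peaks fell in the same order as their pileup, with values given below. Over the 8 members the median best pileup was 44.76 tags, beside 47.77 over all 16775 protein-coding genes with a peak and 45.62 over the 357 short ones.

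**Figure D3:**
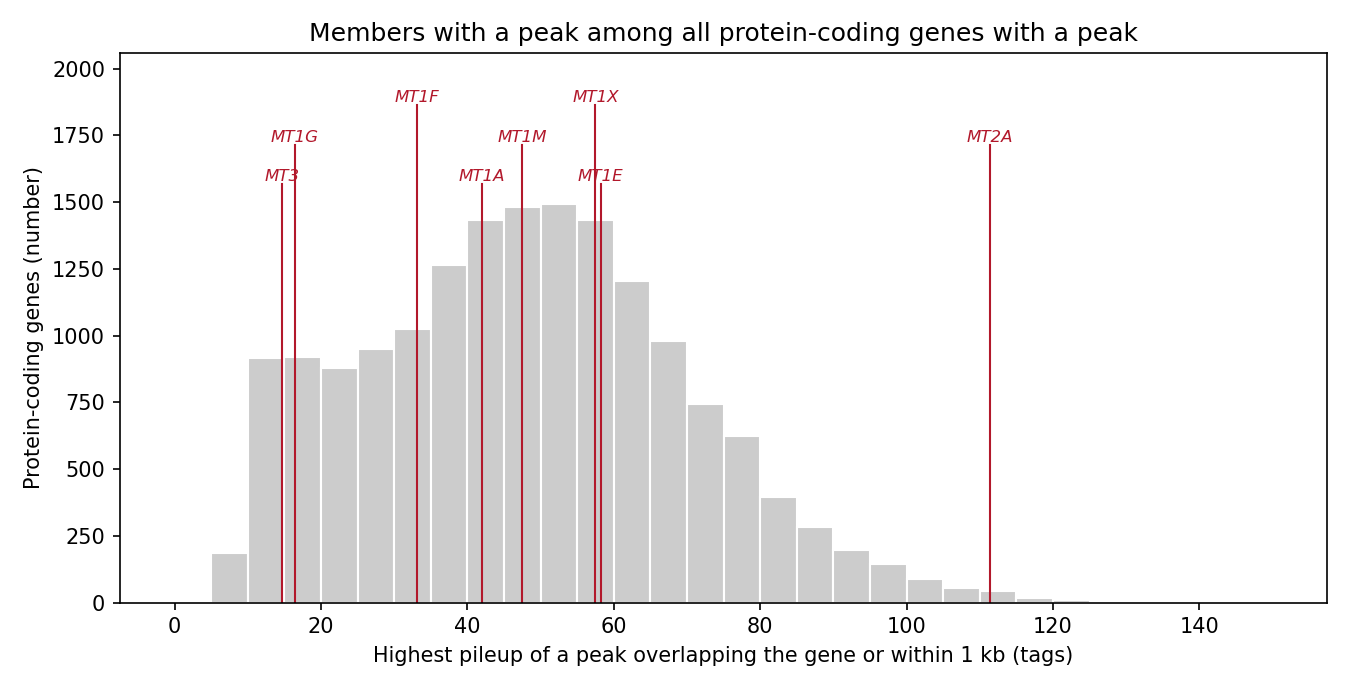
Number of protein-coding genes (vertical axis) by the highest pileup of their peaks in tags (horizontal axis, classes of 5 tags), with red lines at the 8 members with a peak. MT2A at 111.37 tags lies in the upper tail, MT3 and MT1G lie at 14.64 and 16.41, and the other 5 lie between 33.17 and 58.22.

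The order of the members changed when peaks were read by fold enrichment, the authors' ratio of the pileup to a local background taken from the same library within 10 kb. MT2A, highest in pileup, had the lowest folds, 2.44, 2.80 and 1.84 for its 3 peaks. MT1X had the highest, 8.06, followed by MT1A with 5.58, MT1F with 5.18, MT1G with 5.09, MT1M with 4.81 and MT3 with 4.64. The MT1E peaks had folds of 4.01 and 3.67. The local background computed from these values was 37.76, 39.18 and 42.71 tags at the MT2A peaks and 13.26 and 15.14 at the MT1E peaks. It was 9.08 at MT1M, 6.71 at MT1A, 5.59 at MT1F, 2.42 at MT1G and 6.25 at MT1X. From MT2A to MT1G the background of the best peaks thus fell in the same order as their pileup, and their folds did not. At MT3 the local background was 2.37 tags, the caller's floor, so the MT3 fold rests on that floor. Folds with a human genome size were not computed. The background at the MT2A start peak ranked 50th among all peaks. In the 10 kb centred on that peak, 31.2% of the bases lay inside called peaks, compared with 9.1% at MT1X and 5.81% at MT1G. The part of neighbouring peaks in the low folds of MT2A was not tested. When only peaks of 4-fold or more were kept, 7 of the 10 members had one, and MT2A joined MT1B and MT1H among those without one.

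**Figure D4:**
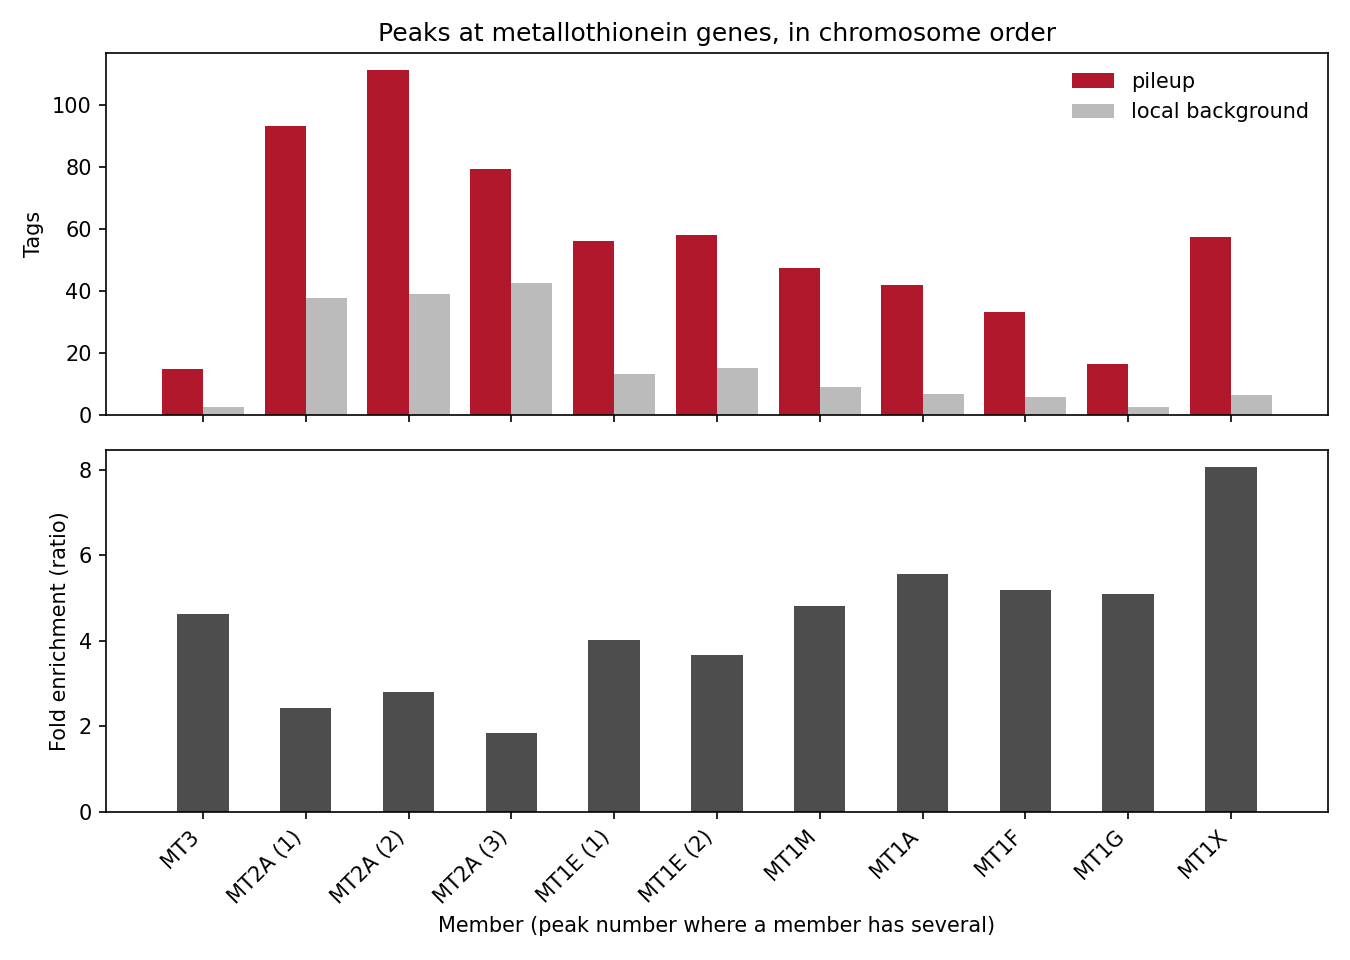
Pileup and local background in tags (upper panel) and fold enrichment (lower panel) of the 11 peaks at members, in chromosome order, 1 library without replicate. MT2A has the highest bars in the upper panel and the lowest in the lower one, with folds of 1.84 to 2.80, and MT1X has the highest fold, 8.06.

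The 5 metallothionein pseudogenes of the cluster and MT4 gave a mixed picture. MT1L and MT1DP, both transcribed pseudogenes, had a peak over the lower-coordinate end. The MT1L peak, chr16:56616928-56617805, measured 878 bp with 45.13 tags and a fold of 3.54. The MT1DP peak, chr16:56643308-56643809, measured 502 bp with 49.47 tags, and its fold of 7.83 was above that of all members except MT1X. MT1JP, MT1CP and MT1IP had none, although the MT1A peak lay 1017 bp from MT1JP, just outside the limit. A peak was assigned to 51.9% of all transcribed pseudogenes and 15.0% of pseudogenes of all kinds. MT4, the epithelial gene on the MT3 side of the array, had no peak, and the nearest was 6367 bp away. Its promoter held 3 metal response element cores, as many as that of MT1B.

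Across the locus, from 50 kb before MT3 to 50 kb beyond MT1X, 23 peaks were called with a summed length of 17171 bp. Of these, 11 were at members, 4 at other genes and 8 had no gene within 1 kb. The 16 peaks inside the cluster made 169 per Mb and covered 12.5% of it. The flanks held 3 and 4 peaks, 60 and 80 per Mb, covering 5.51% and 5.24%. For chromosome 16 between its first and last peak the density was 39.4 per Mb, and for all chromosomes 35.3 per Mb. Of 31788 windows of the cluster's length laid end to end over the chromosomes, 0.963% held at least 16 peaks, and of the 952 on chromosome 16, 0.63% did. Gene-rich windows held more: of the 37 with at least 10 protein-coding gene starts, 3 (8.11%) did, with a median of 12 peaks.

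Away from members, peaks in the locus were lower in pileup but not in fold. The 8 peaks with no gene within 1 kb had a median of 25.08 tags, beside 56.21 tags over the 11 at members. The 4 at other genes had a median of 42.3 tags, and all peaks of the library 21.57. By fold the order was reversed, with medians of 6.19 for the 8 and 4.64 at members, over median backgrounds of 2.68 and 9.08 tags. The median background of the 8 lay near the caller's floor of 2.37 tags. The highest pileup of the 8, at chr16:56614511-56614898 between MT2A and MT1L, was 62.8 tags, above every member peak outside MT2A. Its fold was 2.66 over a local background of 23.02 tags, below the fold of every member peak outside MT2A. The peak of highest fold in the locus, 9.68, was in the MT3-side flank, chr16:56576893-56577412, with 31.66 tags. Its local background was 2.37 tags, the caller's floor, so that fold rests on the floor as well. On the other flank, NUP93, which encodes a nuclear pore protein, and the divergent NUP93-DT shared a start-site peak of 1002 bp and 39.46 tags.

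Most other genes of metal handling had a called peak at an end, as did most protein-coding genes. The list held 41 genes: exporters of the SLC30A family (of zinc, and in SLC30A10 of manganese), zinc importers of the SLC39A family, and genes of copper, iron and redox handling. All 41 had a peak within 1 kb, beside 83.7% of all protein-coding genes, and all 41 were longer than 1727 bp. A gene end was covered in 31 of 41 (75.6%, 95% Wilson interval 60.7% to 86.2%), an interval that holds the 62.3% of all protein-coding genes. That 62.3% includes the 1087 short genes, of which 25.9% had a covered end, and the list holds none so short. The end was covered in 6 of 10 exporters, 10 of 14 importers and 15 of 17 others. MTF1, the zinc-sensing activator of the MT genes, had its best peak at chr1:37859046-37860435 with 69.21 tags and a fold of 6.14. SLC30A1, which exports zinc at the cell surface and is itself an MTF1 target, had a peak at chr1:211577544-211579875 with 53.95 tags and a fold of 3.66. The highest pileups of the list were 84.72 tags at SLC39A1, a zinc importer, 75.47 at ATOX1, a copper chaperone, and 75.16 at SLC11A2, an iron and manganese transporter. The lowest were 13.3 at SLC30A10, a manganese exporter, 14.45 at SLC39A2 and 16.71 at SLC40A1, the iron exporter ferroportin. No gene of this list reached the pileup of the MT2A start peak, and the list's median best pileup was 50.37 tags.

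The label of the cells was checked against markers in the same way. A gene end was covered in 6 of 8 endothelial markers, the exceptions being ERG and CLDN5, near the 62.3% of all protein-coding genes. The counts were 3 of 4 for mural, 1 of 6 for neuronal and glial, 1 of 2 for epithelial and 0 of 2 for blood cell markers. A peak within 1 kb, found for 83.7% of all protein-coding genes, was present at 8 of 8 endothelial, 4 of 4 mural, 4 of 6 neuronal and glial, 2 of 2 epithelial and 2 of 2 blood cell markers. The median best pileup was 61.03 tags for endothelial, 43.65 for mural, 46.76 for neuronal and glial, 17.62 for epithelial and 43.78 for blood cell markers. The endothelial values ran from 31.41 to 95.68 tags and the neuronal and glial ones from 35.02 to 96.54. With such short lists and overlapping ranges, these peaks do not settle the cell type. Open chromatin at a gene does not show its transcription.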

How the data were processed

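The study's ATAC-seq library of hCMEC/D3 (replicate 2 by its title) and 2 RNA-seq libraries were available. The RNA tables list Ensembl transcript identifiers that no file or table used here pairs with genes, so they were not used and the planned RNA values were not made.

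Per the file headers, the authors called broad peaks with MACS 2.2.7.1 on this library without a control, in single-end mode, using a shift of -100 bp, an extension of 200 bp and q limits of 0.05 and 0.1, and keeping 1 tag per position (22188172 of 31532245 tags), with an effective genome size of 1870000000 bp, the caller's mouse preset. The deposited pileup is a signal in tags, the deposited fold is a ratio to the local background, and the deposited −log10 p-value and −log10 q-value belong to each peak; these are the authors' values and describe peaks within this list. The submitters' processing notes name Bowtie2, GRCh38 and mm10 without their roles. On chromosome 16, 21.2% of peaks lay within 1 kb of an end of a protein-coding gene in the GRCh38.p14 table, against 8.23% to 11.3% with the peaks moved by 2000 to 50000 bp; over all chromosomes the shares were 14.9% and 5.4% to 7.34%.

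Peaks were joined to genes by overlap of at least 1 bp (Python 3.11.15, pandas 2.3.3); the overlap rule was first checked on simulated data. The local background was computed as (pileup + 1) / fold − 1, which is approximate because pileup and fold are averages over each broad peak. The gene table has no strand. Motifs were searched in the 250 bases before the start, the stretch printed. The text names all members, the other metallothionein genes and pseudogenes, protein-coding genes of the locus and, of the metal list, MTF1, SLC30A1 and the 3 highest and 3 lowest; LOC124903695, NUP93-DT and 2 peaks between genes were named after their values were seen. Members and lists were chosen with earlier results of these data known.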

Additional observations from a re-analysis of the deposited data

How the results depend on the processing

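Of 19 alternative values, 17 stayed near the reported one, meaning within its 95% Wilson interval for a share, within 1.5 times for a count and within 1 SD over members for the median pileup, and 2 moved. The interval for 8 of 10 members runs from 49.0% to 94.3%, so few outcomes could count as a move, and the 17 are weak evidence of stability. The 8 members with a peak became 10 with a window of 5 kb, where 87.4% of protein-coding genes had one, and the 23 peaks of the locus became 15 with a fold of at least 4. The number of members with a peak was 9 with a window of 2.5 kb, which added MT1H, and 7 with a fold of at least 4, which removed MT2A. With that fold limit the members with a promoter window overlapped by a peak went from 2 to 1 of 4, again by the loss of MT2A. The share of protein-coding genes with such a window went from 70.2% to 54.3%. The Wilson interval over 4 genes is too wide to count the change among members as a move. The count of members was 8 with overlap of the gene itself, with −log10 q of at least 5 and with an overlap of at least 200 bp, each time without MT1B and MT1H. The limit on −log10 q could remove no member, as the lowest value at members was 5.09. No paired analysis was possible because 1 ATAC library of 1 condition was analysed. The alternatives for RNA levels were not run. A single ATAC library gives no spread between replicates, and open chromatin too weak to be called would be missed.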

Other observations

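The promoter windows were compared for stretches in which a read could not be told apart between similar genes. In the promoter table, no run of 75 bases, the tag size, in the windows of MT1B, MT1H, MT1X or MT4 occurred in the window of another gene, and for MT2A the only such gene was LOC124903695, whose window overlaps that of MT2A on the opposite strand. The longest exact run shared between the stretches printed above was 18 bases, between MT1B and MT1X, which were identical at 63.7% of aligned positions. The 6 members outside the table, all bases outside the promoter windows, and runs that differ by a few bases were not compared. The comparison therefore cannot say whether reads from these genes could be placed uniquely in the genome. The stretches differed in base composition: MT2A had 73.2% G and C and 32 CG pairs, MT1H 70.4% and 22, MT1X 70.0% and 22, and MT1B 62.4% and 7. The 2 stretches covered by a peak thus held 32 and 22 CG pairs and the 2 without one 22 and 7. A link between base composition and the peaks was not tested.

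The other motifs searched varied among the same stretches. GGGCGG was found in all 4, with 2 copies in MT2A and MT1X and 1 in MT1B and MT1H. It was found in 42.6% of all stretches and in 53.7% of those of protein-coding genes. TGANTCA was found in MT2A and MT1B, in 6.57% of all stretches and in 5.36% of the protein-coding ones. TGACNNNGC was found in MT2A, MT1X and MT1B, in 10.9% of all and in 11.2% of the protein-coding ones. CACGTG and the glucocorticoid element had no match in these 4. They were found in 6.34% and 0.327% of all stretches, and in 7.37% and 0.252% of those of protein-coding genes. Bases farther than 250 before the start were not searched, so an element lying there or across that limit would be missed. TGANTCA and TGACNNNGC can overlap at their shared first letters.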
